A study of Mus musculus with 99 samples.

Results

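Expression of cholinergic neuron genes and muscarinic receptors was measured for 9 of the 55335 gene identifiers counted in each library, chosen by name and found by their GENCODE symbols: Chat, Slc18a3, Slc5a7, Ache and the muscarinic receptor genes Chrm1, Chrm2, Chrm3, Chrm4 and Chrm5. All 9 were found in every library. Bulk RNA was sequenced from tissue punches of juvenile wild-type C57BL/6 mice of both sexes, whose dams drank water with fentanyl at 10 µg/ml, or water alone, from embryonic day 0 up to weaning. Punches were taken from the ventral tegmental area (VTA), ventrobasal thalamus (VBT), somatosensory cortex S1, prelimbic cortex (PrL) and nucleus accumbens (NAc). Each of the 20 groups of 1 region, 1 sex and 1 treatment had 5 libraries, except S1 from water-exposed males with 4. The labels name neither litters nor separate cages, so p-values measure the spread between these libraries only.

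Acetylcholine is made from choline and acetyl coenzyme A by choline acetyltransferase, the product of Chat. It is loaded into vesicles by the transporter encoded by Slc18a3, and the choline freed after release is taken back up by the transporter encoded by Slc5a7. Ache encodes acetylcholinesterase, which breaks acetylcholine down, and it is made by many cells that release no acetylcholine. Of the muscarinic receptors, those of Chrm1, Chrm3 and Chrm5 couple to Gq and phospholipase C, and those of Chrm2 and Chrm4 couple to Gi and Go, which lower cyclic AMP. In the striatum, including NAc, acetylcholine comes from local interneurons, while the Chrm5 receptor is known from midbrain dopamine neurons. In bulk tissue, fewer cells of a type and less RNA per cell cannot be told apart.

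The 3 genes that mark a cholinergic neuron are shown by their upstream sequence because Chat and Slc18a3 form 1 locus and because all 3 varied together below. On GRCm38 (GENCODE M21), Chat spans chr14:32408203-32465989 on the minus strand, and Slc18a3 lies inside it on the same strand at chr14:32462438-32464850, with 0 exon bases shared. The RefSeq starts of both genes lie 1059 bases apart. Slc5a7 is at chr17:54273590-54299034, also on the minus strand. Of the 9 members, 8 had a RefSeq start in the promoter table (GRCm38.p6), and Chrm1 had none. The 250 bases before the start are printed 5′ to 3′ on the gene's strand, at chr14:32465910-32466159 for Chat, chr14:32464851-32465100 for Slc18a3 and chr17:54299035-54299284 for Slc5a7. Capitals mark E-boxes (CANNTG) and GC boxes (GGGCGG on either strand).
Chat: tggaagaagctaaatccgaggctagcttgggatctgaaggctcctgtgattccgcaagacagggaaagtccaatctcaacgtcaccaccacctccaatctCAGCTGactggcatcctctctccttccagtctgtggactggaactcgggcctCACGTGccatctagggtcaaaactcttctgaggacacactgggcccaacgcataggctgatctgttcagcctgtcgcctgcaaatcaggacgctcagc
Slc18a3: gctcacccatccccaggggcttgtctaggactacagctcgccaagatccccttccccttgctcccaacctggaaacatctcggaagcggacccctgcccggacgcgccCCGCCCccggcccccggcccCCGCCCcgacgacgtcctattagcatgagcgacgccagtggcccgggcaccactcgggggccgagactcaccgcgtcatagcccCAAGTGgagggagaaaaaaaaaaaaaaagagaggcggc
Slc5a7: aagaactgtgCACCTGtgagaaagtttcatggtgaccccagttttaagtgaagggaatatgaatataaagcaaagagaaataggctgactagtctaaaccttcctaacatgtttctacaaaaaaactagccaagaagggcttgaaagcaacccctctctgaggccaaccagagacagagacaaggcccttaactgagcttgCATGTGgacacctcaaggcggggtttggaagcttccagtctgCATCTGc
The window of Chat held 2 E-boxes and no GC box, that of Slc18a3 1 E-box and 2 GC boxes, and that of Slc5a7 3 E-boxes and no GC box. E-boxes were in 66.2% and GC boxes in 32.7% of all 32851 promoter windows of 250 bases. GC content was 54.8% for Chat, 66% for Slc18a3 and 45.6% for Slc5a7.

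The other members lie on other chromosomes. Ache is at chr5:137287519-137294466, Chrm1 at chr19:8663789-8683587, Chrm2 at chr6:36388084-36528414, Chrm3 at chr13:9875486-10360847, Chrm4 at chr2:91927249-91928688 and Chrm5 at chr2:112479171-112480769. The models of Chrm4 and Chrm5 in this annotation hold 1440 and 1599 exon bases, coding length only. Antisense transcripts share 98 exon bases with Ache, 329 with Chrm1 and 142 with Chrm2, and since no source gives the counting as stranded, reads there cannot be told apart by strand.

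Library totals over genes ranged from 16515545 to 52069639 counts. VTA male water 3, with counts for 6333 genes, was left out, leaving 98 libraries and 4 in that group. Some libraries held markers of other tissue. In PrL, the summed level of 5 olfactory bulb markers was 174.3 CPM in female water 5 and 329.3 CPM in male water 3, and between 5.19 and 9.91 CPM over the fentanyl libraries. In VBT, 7 of 20 libraries had a striatal score above 4, where a score is the mean of log2(CPM + 1) over a marker list: female water 1 and 2, male water 3 and 4, and male fentanyl 1, 3 and 5. In VTA, male fentanyl 4 had the highest level of 4 of 7 cranial motor neuron markers, with Prph at 21.2 CPM.

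Across regions of water-exposed mice, the 3 cholinergic neuron genes had their highest means in NAc, though Slc18a3 was not called there against VBT or VTA. Ache and Chrm5 were highest in VTA, Chrm1 in cortex and NAc, Chrm3 in cortex, and Chrm4 in NAc. Levels are in CPM (counts scaled to the total of the library) over 9 or 10 water libraries per region, and regions were compared in 1 fit of these 48 libraries with edgeR's quasi-likelihood test, adjusted by Benjamini-Hochberg over 20216 genes. All 9 members were called between VTA and S1, 6 higher and 3 lower in VTA, where 69.2% of all genes were called. Between S1 and PrL, 2 of 9 were called, where 39.5% of all genes were called. VTA and VBT differed in 4 of 9, where 54.4% of all genes were called. The other 7 pairs called between 7 and 9 of 9 members, against 52.1% to 70.1% of all genes.

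Chat, the synthetic enzyme, averaged 10.6 ± 4.14 CPM (SD, n = 10) in NAc, with the lowest library at 5.03, the median at 11.1 and the highest at 18.1. It averaged 3.67 ± 5.22 CPM (n = 10) in VBT, 2.78 ± 3.41 (n = 9) in VTA, 0.674 ± 0.172 (n = 9) in S1 and 0.288 ± 0.108 (n = 10) in PrL. The VBT and VTA means stood on a few libraries, since their medians were 0.675 and 1.31 CPM and their highest libraries 16.2 and 9.98 CPM. By edgeR, NAc exceeded VBT by 1.42 on the log2 scale (SE 0.56, adjusted p = 0.0223), VTA exceeded S1 by 1.96 (SE 0.66, adjusted p = 0.00763), and the other neighbours in the order (VBT and VTA, S1 and PrL) did not differ beyond their spread.

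Slc18a3, the vesicular transporter, followed the same order of means, at 4.39 ± 1.58 CPM in NAc (SD, n = 10), 1.88 ± 2.69 in VBT, 1.62 ± 2.37 in VTA, 0.276 ± 0.166 in S1 and 0.202 ± 0.128 in PrL. One water library of VBT and 1 of PrL had no count, which allows up to 3 counts, or 0.0772 and 0.0723 CPM. NAc was not told apart from VBT (log2 difference 1.12, SE 0.65, adjusted p = 0.122 by edgeR) or from VTA (VTA minus NAc -1.40, SE 0.70, adjusted p = 0.0761). Of its neighbours, VTA and S1 differed (log2 difference 2.51, SE 0.81, adjusted p = 0.00559 by edgeR). The VTA mean stood on female water 1 at 4.89 CPM and female water 5 at 6.54 CPM, with the other 7 libraries between 0.0859 and 0.863 CPM. Without the libraries numbered 5, neither Slc18a3 (1.78, adjusted p = 0.0708 by edgeR) nor Chat (1.41, adjusted p = 0.0667) was called between VTA and S1. Slc5a7, the choline transporter, averaged 28.6 ± 10.6 CPM (SD, n = 10) in NAc, ranging from 14.8 to 47.4, then 9.0 ± 8.98 in VTA, 8.24 ± 11.2 in VBT, 1.30 ± 0.446 in PrL and 0.929 ± 0.235 in S1. NAc exceeded VTA by 1.62 on the log2 scale (SE 0.50, adjusted p = 0.00462 by edgeR), and VBT exceeded PrL by 2.66 (SE 0.54, adjusted p = 2.85e-05). VTA and VBT, and PrL and S1, were not told apart.

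Without the 4 water VBT libraries and 2 water PrL libraries with high striatal or olfactory bulb scores, the thalamic levels of these genes fell below those of VTA. The 4 VBT libraries were the 4 highest of the VBT water libraries for each of these genes, so leaving them out had to lower VBT. VTA kept its own highest water libraries, female water 1 and 5, so the differences and p-values below describe this choice of libraries. Chat was then higher in VTA than VBT by 2.53 on the log2 scale (adjusted p = 0.000171 by edgeR) and Slc18a3 by 3.10 (adjusted p = 0.000882), where the fit of all water libraries gave -0.49 and -0.28. Likewise, VBT no longer exceeded S1: the difference became -0.66 for Chat and -0.70 for Slc18a3, against calls of higher levels in VBT with those libraries in. For Slc5a7, VBT and PrL then differed by 0.24 (adjusted p = 0.668 by edgeR) and VBT and S1 by 0.92 (adjusted p = 0.0804), neither called, while VTA exceeded VBT by 2.23 (adjusted p = 4.57e-05).

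Ache was ordered without ties, from VTA at 244 ± 24.6 CPM (SD, n = 9) to VBT at 105 ± 8.22, NAc at 70.2 ± 13.1, PrL at 46.5 ± 5.00 and S1 at 31.7 ± 3.66. Every neighbouring pair differed by edgeR, with adjusted p from 1.34e-17 for VTA against VBT to 1.22e-07 for NAc against PrL. VTA exceeded S1 by 2.86 on the log2 scale (SE 0.08). The breakdown enzyme was thus highest in a region where Chat was low, and S1 and PrL were lowest for both genes.

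Among the Gq-coupled receptors, Chrm1 was high in PrL (185 ± 20.2 CPM, n = 10), S1 (168 ± 21.9, n = 9) and NAc (144 ± 17.9, n = 10), which did not differ as neighbours, and low in VTA (8.39 ± 2.27) and VBT (6.53 ± 6.41). The VBT mean held libraries of high striatal score, male water 3 at 22.1 CPM and female water 2 at 13.4 CPM, against at most 5.87 in the others. The step from NAc to VTA was 4.11 on the log2 scale (SE 0.28, adjusted p = 4.03e-17 by edgeR). Chrm3 was highest in S1 at 82.1 ± 6.33 CPM, followed by PrL at 61.1 ± 6.17, VTA at 31.9 ± 5.84, NAc at 25.7 ± 10.6 and VBT at 11.8 ± 2.75. S1 exceeded PrL by 0.41 (SE 0.15, adjusted p = 0.0315 by edgeR), a call lost in 3 of the 5 fits that left out 1 replicate number, and VTA and NAc were not told apart.

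Chrm5 was near its counting floor in 3 of 5 regions. It averaged 14.1 ± 4.31 CPM in VTA (SD, n = 9; lowest 6.47, median 15.99, highest 18.3), 1.34 ± 0.867 in NAc, 0.228 ± 0.0848 in VBT, 0.128 ± 0.0900 in PrL and 0.0936 ± 0.111 in S1. VTA exceeded NAc by 3.41 on the log2 scale (SE 0.33, adjusted p = 2.18e-12 by edgeR), with no overlap of libraries, and NAc exceeded VBT by 2.34 (SE 0.38, adjusted p = 5.21e-07). In S1, 3 of 9 water libraries had no count, which allows up to 0.0734, 0.0747 and 0.105 CPM.

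Of the Gi-coupled receptors, Chrm4 was highest in NAc at 34.9 ± 9.18 CPM, then PrL at 17.1 ± 2.60, S1 at 15.2 ± 1.82, VBT at 4.61 ± 4.64 and VTA at 2.06 ± 0.436. NAc exceeded PrL by 0.94 on the log2 scale (SE 0.26, adjusted p = 0.00233 by edgeR), and PrL and S1 were not told apart. VBT exceeded VTA by 1.26 (adjusted p = 0.000547), but without the VBT libraries of high striatal score the difference, VTA minus VBT, was 0.02 (adjusted p = 0.950). Those libraries were the highest VBT water libraries for Chrm4, so leaving them out had to lower VBT. Chrm2 was the most even of the 9 by range, from 35.6 ± 13.7 CPM in VTA and 28.4 ± 5.56 in VBT to 20.8 ± 3.18 in S1, 17.6 ± 12.2 in PrL and 16.04 ± 3.40 in NAc. Only VBT and S1 differed among its neighbours (0.50, SE 0.22, adjusted p = 0.0457 by edgeR). The PrL mean of Chrm2 held the olfactory libraries, male water 3 at 47.4 CPM and female water 5 at 29.5 CPM, against a median of 11.9.

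**Figure D1:**
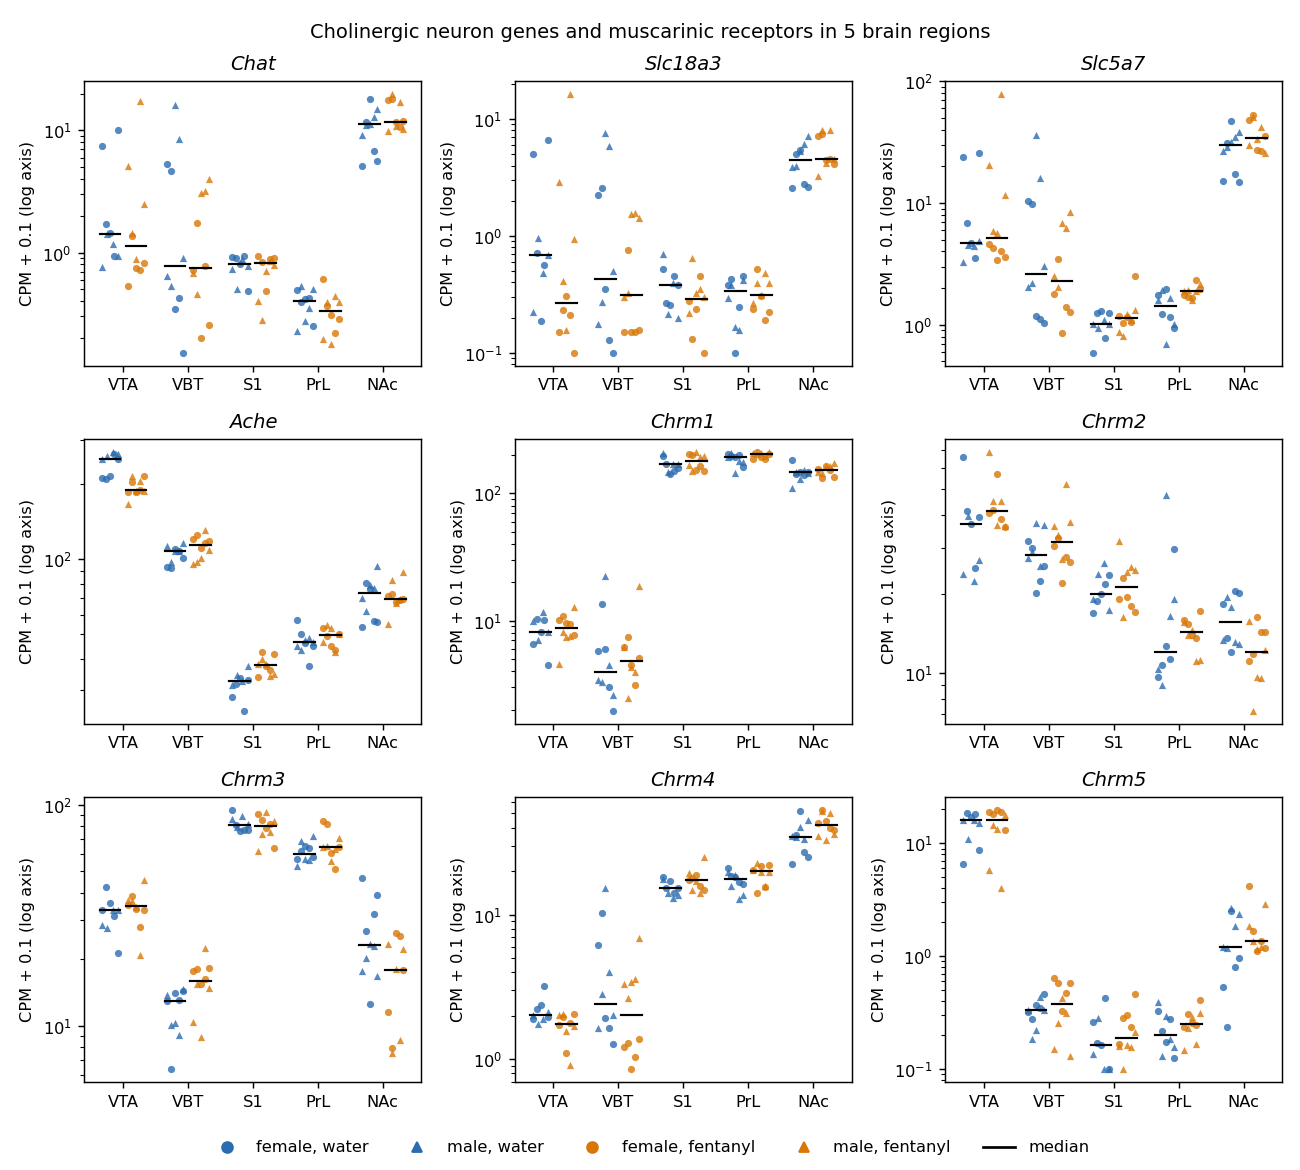
CPM plus 0.1 (log axis) of the 9 members in each of 98 libraries, by region (x axis), treatment (colour) and sex (symbol), with the median of each treatment as a bar. Chat, Slc18a3 and Slc5a7 have their highest medians in NAc and scatter widely in VTA and VBT, while Chrm5 is near its floor outside VTA and NAc.

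Levels of different genes can be set side by side only per length, as CPM per kilobase of exon. On that scale Ache led VTA water libraries at a mean of 52.9, above Chrm5 at 8.79, Chrm2 at 5.88 and Chrm3 at 5.10. In NAc, Chrm4 at 24.2 and Chrm1 at 22.2 led, above Ache at 15.2 and Slc5a7 at 5.06, while Chat was at 2.25. In cortex Chrm1 led at 28.5 in PrL and 25.95 in S1. The values of Chrm4 and Chrm5 rest on coding length, so they are too high if reads in untranslated exons were counted.

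The 3 cholinergic neuron genes rose and fell together from library to library in VTA, VBT and NAc. Over log2(CPM + 1), r between Chat and Slc5a7 was 0.974 in 19 VTA libraries, 0.989 in 20 VBT libraries and 0.977 in 20 NAc libraries, but 0.232 in S1 and 0.043 in PrL, where Chat had 6 to 38 and 3 to 19 counts per library and Slc5a7 21 to 86 and 27 to 80. Chat and Slc18a3 gave 0.974, 0.976 and 0.929 in VTA, VBT and NAc. These points share library, depth and punch, so the values are descriptions.

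In NAc, these genes tracked how striatal a library was. Across 20 libraries, log2(CPM + 1) of Chat correlated with the striatal marker score, a mean over 6 genes, with r = 0.934 and rho = 0.886 (permutation p = 1e-05 for each, the smallest that 100000 permutations give; Benjamini-Hochberg adjusted 7.36e-05 and 0.000101 over 81 relations computed). Without the 2 libraries farthest from the median score, r was 0.888, and it was 0.907 within fentanyl and 0.942 within water libraries. Chrm4 gave r = 0.923 and Slc5a7 r = 0.921 in the same libraries. Chrm3 went the other way with r = -0.898, and it rose with the cortex score (r = 0.936, rho = 0.932, 0.956 without the 2 farthest libraries, adjusted permutation p = 7.36e-05). The summed cortex markers spanned 54.7 to 1396 CPM over NAc libraries.

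In VBT, Chrm4 (r = 0.949), Chrm1 (r = 0.839) and Chat (r = 0.792) rose with the striatal score, with adjusted permutation p of 7.36e-05, 0.000216 and 0.000512 and r of 0.887, 0.677 and 0.650 without the 2 farthest libraries. Male water 3 had the highest level of all 6 striatal markers and of 5 of 9 forebrain cholinergic markers, with Ngfr at 24.0 CPM and Lhx8 at 9.04 CPM, and it had the highest Chat (16.2 CPM), Slc5a7 (36.4 CPM), Chrm1 (22.1 CPM) and Chrm4 (15.2 CPM) of the region. Of the other forebrain cholinergic markers there, Isl1 was 23.7, Zic4 9.45, Slc17a8 3.93 and Gbx2 2.05 CPM, none the highest of the region. Ache gave r = -0.483 and rho = -0.532 (adjusted permutation p = 0.0518 and 0.0406), with r = -0.513 without the 2 farthest libraries.

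In VTA, the libraries high in the cholinergic genes were low in Chrm5. Slc5a7 was 78.5 CPM in male fentanyl 4, 25.7 in female water 5, 23.7 in female water 1 and 20.4 in male fentanyl 1, followed by 11.4 in male fentanyl 5, and at most 6.796 in the other 14. Chrm5 in the first 4 of these libraries was 3.93, 8.61, 6.47 and 5.74 CPM, the lowest 4 of the region, and 17.6 CPM in male fentanyl 5. Across 19 libraries r of Chat with Chrm5 was -0.874 on the log scale.

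Of the 6 markers of the VTA list, some were low in these libraries and others were not. Th, the rate-limiting enzyme of dopamine synthesis, was 23.8 CPM in male fentanyl 1, 57.0 in female water 1 and 85.3 in male fentanyl 4, against a median of 254, but 316 in female water 5. Slc6a3, the dopamine transporter, was 33.3, 73.1, 126 and 564 CPM in these libraries in the same order (median 439), and Slc18a2, the vesicular monoamine transporter, 393, 329, 93.9 and 352 CPM (median 389). En1 was 18.8, 16.8, 16.8 and 48.9 CPM (median 34.3), Pitx3 0.321, 0.663, 0.865 and 4.71 CPM (median 2.81) and Foxa2 0.481, 1.199, 11.6 and 8.96 CPM (median 7.47). Female water 5 was thus below the median only for Slc18a2, and male fentanyl 4 was above it only for Foxa2. The 7 cranial motor neuron markers summed to 46.0 CPM in male fentanyl 4, where the median of that group was 16.2, and to at most 16.7 CPM in the other 3 groups, with Mnx1 at 0 in 17 and Phox2a at 0 in 16 of 19 libraries. Slc5a7 rose with the cranial motor neuron score (r = 0.739, rho = 0.544, adjusted permutation p = 0.00667 and 0.0415), but r was 0.193 without the 2 farthest libraries, so the relation rested on them. The 9 forebrain cholinergic markers summed to 121 to 249 CPM in female fentanyl, 128 to 204 in female water, 35.8 to 231 in male fentanyl and 105 to 220 in male water libraries of VTA. Of these, Lhx8 did not exceed 0.344 CPM, while Isl1, which is on both lists, was highest in male fentanyl 4 at 2.49 CPM (median 0.255). Their part in the levels of the members was not tested.

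In PrL, Chrm2 rose with the olfactory bulb score (r = 0.848), a relation resting on male water 3 and female water 5, since r was 0.204 without them. Chrm1 fell with it (r = -0.880, rho = -0.408, adjusted permutation p = 0.000656 and 0.130), with r = -0.462 without the same libraries, and so did Slc5a7 (r = -0.726, rho = -0.681, adjusted permutation p = 0.00382 and 0.00575), with r = -0.185 without them. All 5 olfactory bulb markers were highest in male water 3.

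**Figure D2:**
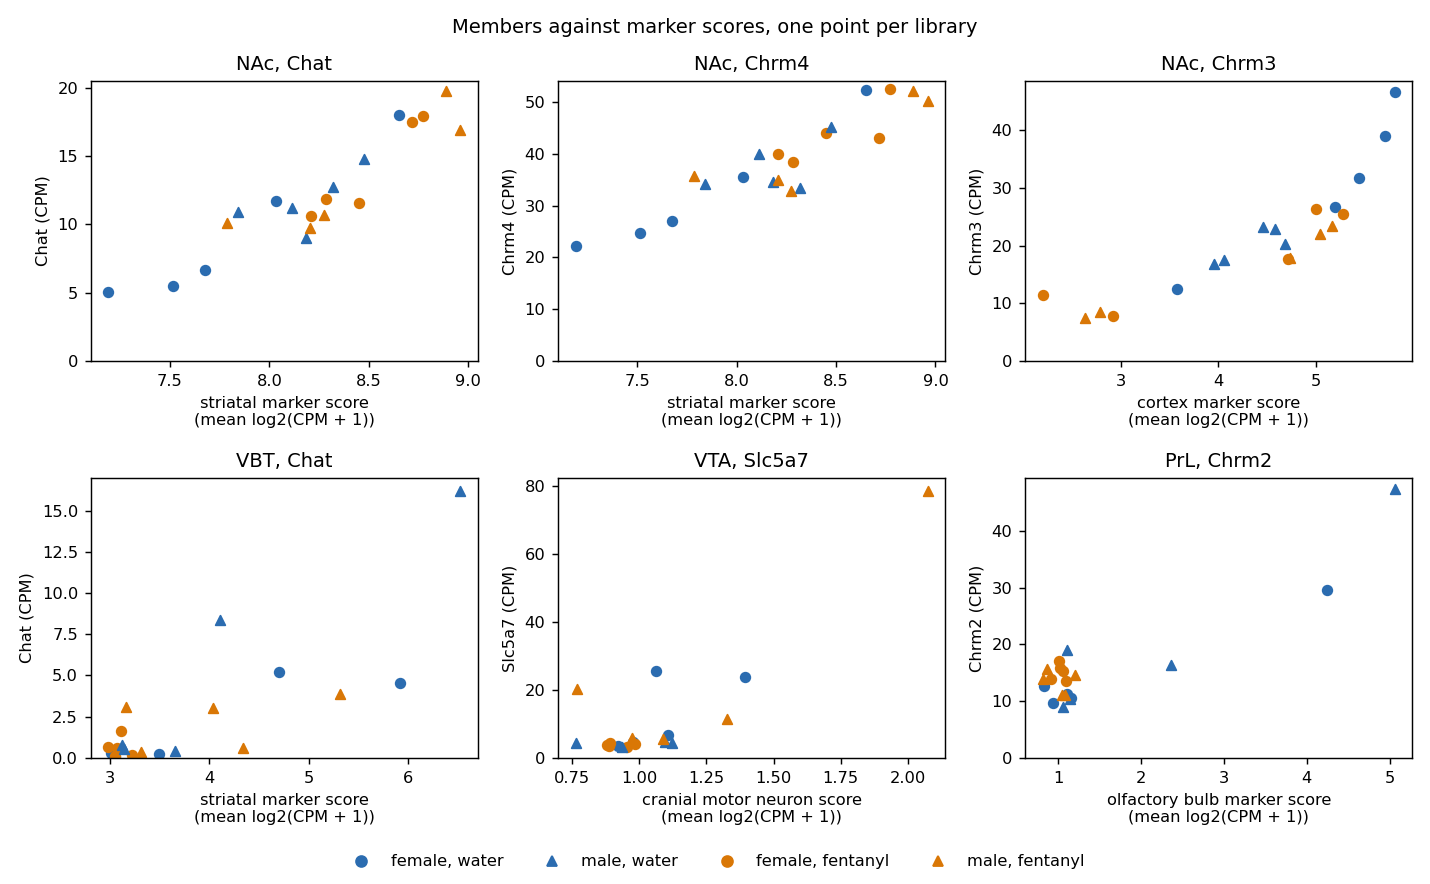
CPM of 5 members (y axis) against a marker score (x axis, mean log2(CPM + 1) over the list), 1 point per library, coloured by treatment with symbols by sex. Chat and Chrm4 climb with the striatal score in NAc and Chrm3 with the cortex score, whereas the VTA and PrL relations hang on 1 or 2 far points.

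Genes whose pattern was most like a member were listed by r of log2(CPM + 1) among protein-coding genes with a mean of at least 1 CPM. For Chat in 20 NAc libraries these were Gng7 (0.965), Slc10a4 (0.962), Sertad4 (0.953), Pdyn (0.949) and Dclk3 (0.944) of 13422 genes. In 19 VTA libraries they were Lhx4 (0.907), Pfkfb3 (0.902), Copg1 (0.892), Acan (0.875) and Tuba4a (0.863) of 13642 genes. Over all 98 libraries, where region sets most of the variation, the closest of 13608 genes were Tmem121b for Chrm1 (0.992), Rassf4 for Chrm2 (0.889), Car10 for Chrm3 (0.962), Sowaha for Chrm4 (0.978) and Irs4 for Chrm5 (0.964). Between members over the same libraries, Chrm1 and Chrm4 gave 0.906 and Ache and Chrm5 0.798.

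Perinatal fentanyl was compared with water within each region, in females, in males, as their average, and as the difference between the male and the female effect, by edgeR's quasi-likelihood test adjusted by Benjamini-Hochberg over all genes tested in the region. By this edgeR fit, members were called in VTA only. In VTA males, Ache was lower and Slc5a7 higher, and in the average of the sexes Ache was lower. These were 2 of 9 members in males, where 22.0% of 19822 genes were called, and 1 of 9 in the average, where 23.1% were called, so the members' share was at or below the background. The median log2 fold change of the 9 in VTA males was 0.22, and that of all genes tested 0.00.

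Ache in VTA males was 166, 215.8, 187, 205.7 and 189 CPM in the 5 fentanyl libraries, and 251, 259.7, 269 and 264 CPM in the 4 water libraries. All fentanyl libraries lay below all water libraries, as 13.2% of all genes did in this comparison. The means were 193 ± 19.1 and 261 ± 7.33 CPM (SD, n = 5 and 4), and the log2 fold change was -0.40 (SE 0.08, adjusted p = 0.00316 by edgeR). In VTA females the fentanyl libraries held 186, 204, 186, 190.3 and 216 CPM and the water libraries 212, 209, 217, 265 and 253. Female water 4 and 5 stood above the rest, and the groups overlapped by 1 library, female fentanyl 5. The female log2 fold change of -0.25 (SE 0.08) was not called (adjusted p = 0.274 by edgeR). The average over both sexes was -0.33 (SE 0.05, adjusted p = 0.00107 by edgeR), with means of 195 ± 15.6 (n = 10) and 244 ± 24.6 (n = 9) CPM, and the male and female effects were not shown to differ (difference -0.15, SE 0.11, adjusted p = 0.587). Ache rose with the VTA marker score across the 19 libraries (r = 0.570, rho = 0.558, adjusted permutation p = 0.0228 and 0.0369, r = 0.481 without the 2 farthest). With that score as a covariate the male change was -0.35 (adjusted p = 0.0224 by edgeR) and the average -0.29 (adjusted p = 0.00577).

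The GC content of genes moved with this result. In each library, Spearman's rho across genes between GC content of the exons and the deviation of each gene from its VTA mean was between 0.524 and 0.649 in the 4 male water libraries and between -0.491 and -0.105 in the 5 male fentanyl libraries. It was 0.661 and 0.542 in female water 4 and 5, the 2 female libraries with the highest Ache, and between -0.555 and 0.0172 in the other 8. The exons of Ache have a GC content of 58.7%. With offsets for a GC trend in each library, the male change was -0.09 (adjusted p = 0.263 by edgeR) and the average -0.10 (adjusted p = 0.0501), and neither was called. With VTA male water 3 kept (105.3 CPM), the male change was -0.19 (adjusted p = 0.9996 by edgeR).

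Slc5a7 in VTA males was 20.4, 5.81, 5.62, 78.5 and 11.4 CPM in the fentanyl libraries and 3.16, 4.44, 4.30 and 4.77 CPM in the water libraries. Every fentanyl library was above every water library, as for 9.23% of all genes, though fentanyl 2 and 3 were near the water range and fentanyl 4 stood far above. Means were 24.4 ± 30.9 and 4.17 ± 0.696 CPM (SD, n = 5 and 4), and the log2 fold change was 2.62 (SE 0.82, adjusted p = 0.0319 by edgeR). Without male fentanyl 4, which was highest in the region for 4 of 7 cranial motor neuron markers, it was 1.42 (adjusted p = 0.113), and the call was also lost without any 1 of the 4 male water libraries (adjusted p from 0.0664 to 0.0834). With the score of those markers as a covariate the change was 1.59 (adjusted p = 0.102 by edgeR).

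Chat and Slc18a3 were not called by edgeR in VTA males, while DESeq2 called both (adjusted p = 0.0113 and 0.0463), 2 of the 5 members it called where it called 25.4% of all genes. Chat in VTA males was 4.97, 1.34, 0.783, 17.3 and 2.41 CPM with fentanyl and 0.668, 1.31, 1.09 and 0.841 with water (log2 fold change 2.53, SE 0.92, adjusted p = 0.0588 by edgeR). In VTA females it was 0.433, 1.28, 0.649, 0.621 and 0.721 CPM with fentanyl and 7.35, 1.60, 1.35, 0.845 and 9.98 with water (-2.55, SE 0.86, adjusted p = 0.296). High libraries were thus in the fentanyl group of males and in the water group of females. The difference between the male and female effects was 5.08 (SE 1.26) for Chat, 7.77 (SE 2.07) for Slc18a3 and 4.39 (SE 1.10) for Slc5a7, none called by edgeR (adjusted p = 0.420 for each), while the Wald test of DESeq2 called all 3 (adjusted p = 0.0264 for each). No gene of the 19822 passed this contrast in edgeR (0.0%), and DESeq2 called 7 (0.0353%), of which these were 3. As they varied together across these libraries, they are not independent calls. Slc18a3 had between 0 and 8 counts in the female fentanyl libraries, so its difference rests on counts near the floor.

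The receptors in VTA were not called by edgeR, and DESeq2 called Chrm2 in males. Chrm2 in males was 68.9, 44.9, 36.5, 44.8 and 36.2 CPM with fentanyl and 23.7, 39.4, 22.2 and 26.7 with water, where male water 2 overlapped the fentanyl range (log2 fold change 0.76, SE 0.27, adjusted p = 0.0531 by edgeR; 0.0239 by DESeq2). The edgeR test called it when any 1 of 6 libraries was left out (female fentanyl 3, female water 1 or 4, male fentanyl 3 or 5, or male water 2), with adjusted p from 0.0244 to 0.0499. Its level fell with the VTA marker score across 19 libraries (r = -0.815, rho = -0.765, adjusted permutation p = 7.36e-05 and 0.000658, r = -0.666 without the 2 farthest). Chrm5 in males was 5.74, 14.4, 13.5, 3.93 and 17.6 CPM with fentanyl and 15.996, 10.9, 15.99 and 15.003 with water (-0.37, SE 0.36, adjusted p = 0.510). Chrm1, Chrm3 and Chrm4 had log2 fold changes between -0.22 and 0.22 in males and between -0.47 and 0.26 in females, with adjusted p of 0.380 or more. In females edgeR called 0 of 9 members and 0.0% of all genes, and 5 members had an unadjusted p under 0.05, as did 12.7% of all genes. DESeq2 called 1, Slc18a3 (-4.71, adjusted p = 0.0353), and 0.444% of all genes. Slc18a3 had 2, 5, 8, 3 and 0 counts in the female fentanyl libraries and 155, 22, 3, 16 and 225 in the female water libraries. That fold change thus set counts near the floor against female water 1 and 5.

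**Figure D3:**
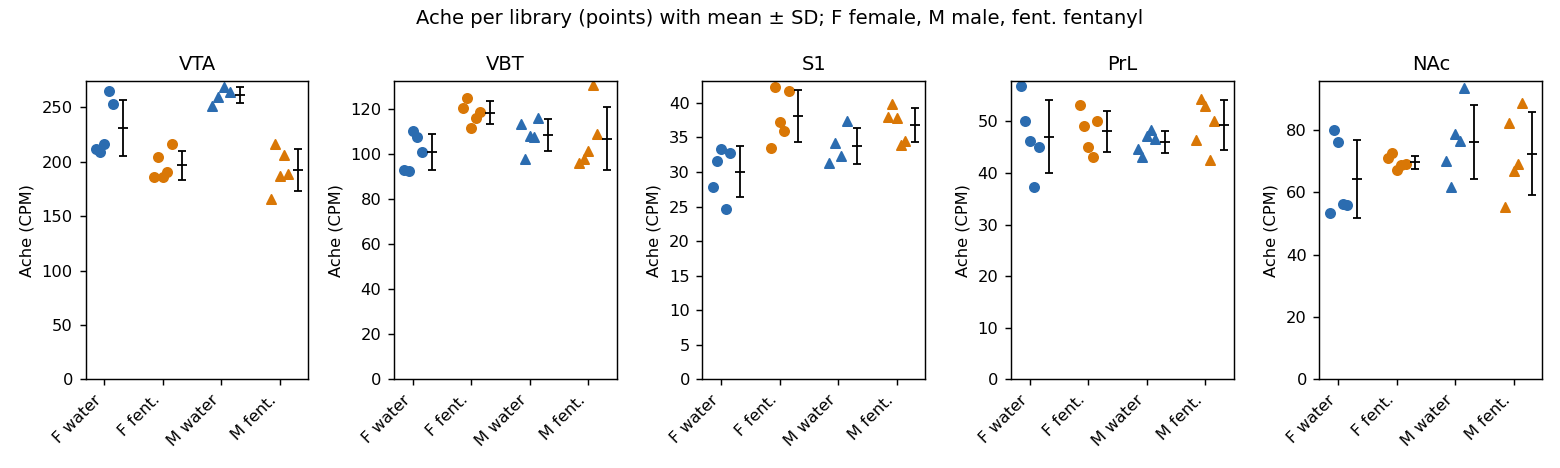
Ache in CPM (y axis from 0) for each library of each region, as points by sex and treatment with the group mean ± SD beside them. In VTA the 5 male fentanyl libraries lie between 166 and 216 and the 4 male water libraries between 251 and 269.

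In S1, Ache was the member nearest to a call. In females it was 33.5, 42.3, 37.3, 35.9 and 41.7 CPM with fentanyl and 27.9, 31.5, 33.3, 24.6 and 32.8 with water. The groups did not overlap, as for 4.22% of all genes in either direction, but the lowest fentanyl and highest water library were close. The log2 fold change was 0.34 (SE 0.08, adjusted p = 0.0818 by edgeR; 0.0235 by DESeq2), in males 0.15 (SE 0.09, adjusted p = 0.773), and on average 0.24 (SE 0.06, adjusted p = 0.0543; 0.0162 by DESeq2). The rho with GC content averaged 0.170 ± 0.188 in female fentanyl and -0.229 ± 0.184 in female water libraries of S1 (SD, n = 5 each), and with GC offsets the female change was 0.23 (adjusted p = 0.279). Ache also moved with the cortex score across 19 S1 libraries (r = 0.564, rho = 0.460, adjusted permutation p = 0.0274 and 0.0924, r = 0.449 without the 2 farthest), and with that score as a covariate the female change was 0.28 (adjusted p = 0.603 by edgeR) and the average 0.19 (adjusted p = 0.653). No member was called in S1 by the same edgeR fit as in VTA, where 0.142% (0.127% higher, 0.0152% lower) of all genes were called in females, 0.0% in males and 1.03% (0.815% higher, 0.213% lower) in the average. With replicate number as a block, edgeR called Ache in females, and with no filter on low counts it called 1 member in the average. DESeq2 called 2.04% of all genes in females and 3.27% in the average. Of 8 members tested, 1 had an unadjusted p under 0.05 in females, 1 in males and 2 in the average, against 13.9%, 7.15% and 15.8% of all genes. Chrm5 was too low to be tested in S1 and PrL.

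In VBT, 0 of 9 members were called in any contrast, as were 0.0% of all genes, and DESeq2 called no member. An unadjusted p under 0.05 was found for 3 members in females and 4 in the average, and for 7.86% and 8.49% of all genes. Ache in females was 120.3, 125, 111, 116 and 119 CPM with fentanyl and 92.9, 92.5, 110.1, 108 and 101.05 with water, without overlap (0.22, SE 0.07, adjusted p = 0.451 by edgeR). Chrm3 in females was 17.6, 17.98, 15.4, 16.2 and 18.2 CPM with fentanyl and 12.8, 6.28, 13.9, 13.0 and 14.2 with water, again without overlap (0.49, SE 0.23, adjusted p = 0.621), a separation 2.06% of all genes showed. Across 20 VBT libraries Chrm3 fell with the striatal score (r = -0.639, rho = -0.582, adjusted permutation p = 0.00729 and 0.0238, r = -0.471 without the 2 farthest). Chrm4 in females was 1.11, 1.19, 0.757, 0.946 and 1.29 CPM with fentanyl and 6.07, 10.2, 1.84, 1.56 and 1.18 with water (-1.96, SE 0.64, adjusted p = 0.451), and the 2 high libraries, water 1 and 2, had a striatal score above 4. Summed striatal markers were 91.6 to 100.2 CPM in female fentanyl and 102 to 496.5 CPM in female water libraries. Without the 7 libraries of high score, Chrm4 was -0.56 and Chat changed from -1.73 to 1.51 in females, with no call.

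In NAc, 0 of 9 members were called in any contrast, where edgeR called 0.0% of all genes in females and 0.662% in males. An unadjusted p under 0.05 was found for 3 of 9 members in females and 2 in males, against 9.03% and 17.6% of all genes. Chrm2, a Gi-coupled receptor that also sits on cholinergic neurons themselves, was 15.7, 7.10, 9.58, 9.53 and 12.1 CPM in male fentanyl and 13.3, 19.4, 17.8, 13.1 and 12.8 in male water libraries (log2 fold change -0.47, SE 0.20, adjusted p = 0.221 by edgeR). Male fentanyl 2, 3, 4 and 5 were below all water libraries and fentanyl 1 was among them. The change was -0.33 in females and -0.40 (SE 0.14, adjusted p = 0.301) on average. Across 20 NAc libraries Chrm2 fell with the striatal score (r = -0.763, rho = -0.783, adjusted permutation p = 0.000405 and 0.000636, r = -0.725 without the 2 farthest). It rose with the cortex score (r = 0.732, rho = 0.741, adjusted permutation p = 0.00102 and 0.0013, r = 0.662 without the 2 farthest). Chrm1 in males was 146, 144, 164, 165 and 172 CPM with fentanyl and 110.1, 147, 130.02, 154 and 145 with water (0.24, SE 0.09, adjusted p = 0.171), with 3 fentanyl libraries above all water libraries. Chat and Slc5a7 had female changes of 0.57 and 0.61, Chrm4 0.43 and Chrm3 -0.83, with adjusted p of 0.544 or more. With the striatal score as a covariate these 4 values were -0.06, 0.00, 0.02 and 0.17. Summed striatal markers had a median of 2580 CPM in female fentanyl and 1506 CPM in female water libraries.

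In PrL, 0 of 8 members tested were called, where 0.021% of all genes were called in females and 0.0% in males, and DESeq2 called no member. An unadjusted p under 0.05 was found for none in females and 2 in males, against 1817 and 2284 of the 19074 genes tested. Slc5a7 was 1.67, 1.58, 1.57, 2.25 and 1.88 CPM in female fentanyl, 1.80, 1.84, 1.496, 1.81 and 2.04 in male fentanyl, 1.66, 1.12, 1.88, 1.07 and 0.838 in female water and 1.51, 1.83, 0.594, 1.55 and 0.924 in male water libraries. The fentanyl libraries lay within a narrow band, and the water libraries reached lower (average log2 fold change 0.49, SE 0.18, adjusted p = 0.156 by edgeR, 0.697% of all genes called). Without the olfactory libraries, male water 3 and female water 5, the average was 0.32 (adjusted p = 0.321). Chrm2 in males moved from -0.58 (adjusted p = 0.531) to -0.04 without male water 3 and female water 5.

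**Figure D4:**
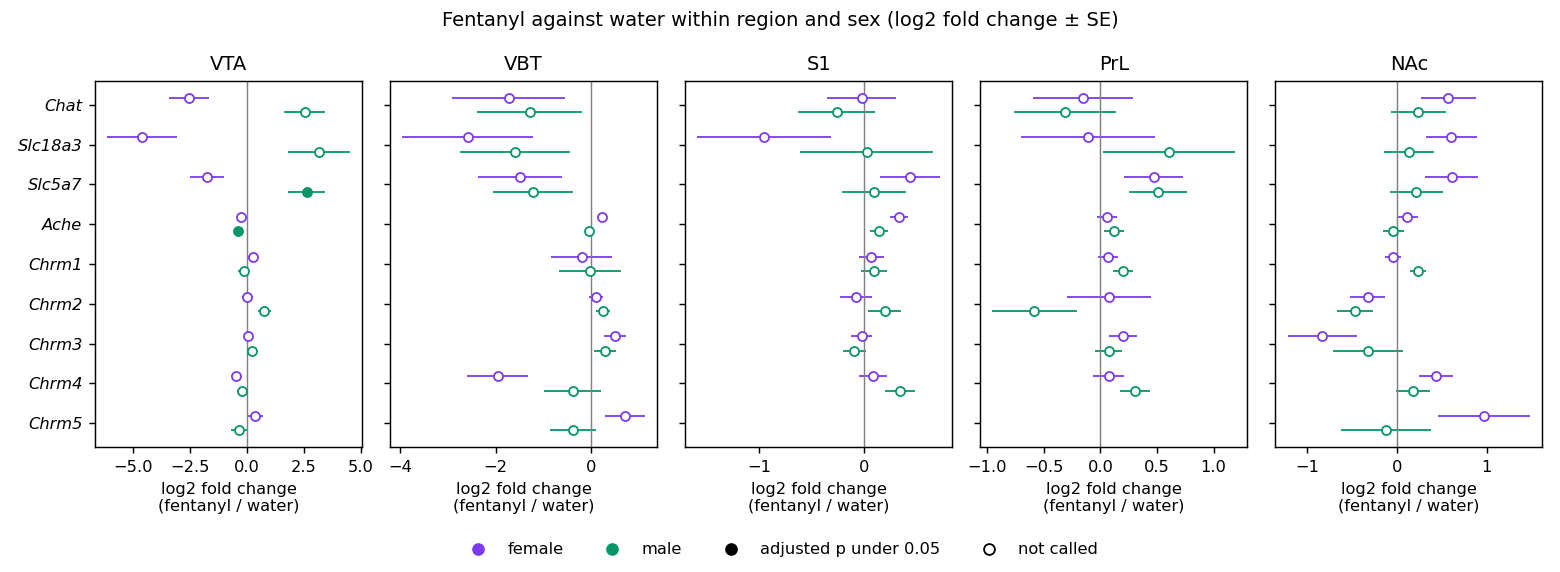
Log2 fold change of fentanyl against water with its SE (x axis, scaled per region) for each member (y axis) in females and males of each region, filled where the adjusted p was under 0.05. The 2 filled points are Ache and Slc5a7 in VTA males, and Chat, Slc18a3 and Slc5a7 lie on opposite sides of 0 in VTA females and males.

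Genes around acetylcholine and its receptors were counted from 3 lists, of 12 for choline supply and breakdown, 15 for the Gq side and 16 for the Gi and Go side. Calls among them were found in VTA alone. Of 11 choline genes tested in VTA males, Pcyt1a (log2 fold change 0.30) and Bche (0.56), encoding another enzyme that cleaves acetylcholine, rose, and Chkb (-1.22), encoding a choline kinase, fell, with 8 not called. Bche was 15.9 ± 1.77 CPM with fentanyl and 11.03 ± 1.22 with water (SD, n = 5 and 4; SE 0.13, adjusted p = 0.00511 by edgeR), opposite in direction to Ache. In the average of the sexes 4 of the 11 were called, where 23.1% of all genes were. Bche (0.31, adjusted p = 0.0145 by edgeR) and Slc44a3 (1.79, SE 0.60, adjusted p = 0.0380) rose, and Chkb (-0.85, adjusted p = 0.00488) and Prima1 (-0.34, SE 0.11, adjusted p = 0.0259), which anchors acetylcholinesterase in membranes, fell. Slc44a3 was low and scattered, at 0.542 ± 0.591 CPM with fentanyl and 0.153 ± 0.105 with water (SD, n = 10 and 9).

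On the Gq side, Gna11 (-0.28) and Plcb3 (-0.28) fell among 15 genes in VTA males and none rose. On the Gi and Go side, Gnai3 (0.20) and Kcnj3 (0.40), a subunit of the potassium channels that Gi-coupled receptors open, rose, and Gnb2 (-0.49), Gnb5 (-0.21), Gnai2 (-0.29), Gnaz (-0.19) and Gng3 (-0.25) fell among 16. List medians were 0.11, 0.10 and -0.16 on the log2 scale. These counts of 3 of 11, 2 of 15 and 7 of 16 stand against 22.0% of all genes called in VTA males, and GC offsets lowered the calls over all genes from 4355 to 797.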

How the data were processed

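RNA of 99 libraries from 5 brain regions was amplified with SMART-Seq v4 from 10 ng of total RNA. The authors deposited gene counts per library, made with HTSeq on GRCm38 per the submitters' processing notes, and the aligner, the annotation and the strand setting are not given in the sources used here. GENCODE M21 gave a symbol to 55154 of 55335 identifiers. The deposited counts were not normalized, and reads outside exons (9.48% to 17.0% per library), ambiguous (1.41% to 2.16%) and not unique (3.03% to 6.04%) stayed out of totals. No pair of libraries was identical (highest r of log2 CPM 0.999).

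Groups came from the labels. Fentanyl and water were compared within region by edgeR 4.0.16 (TMM, filterByExpr, robust quasi-likelihood test, R 4.3.3) in a means model of the 4 sex by treatment groups, with Benjamini-Hochberg adjustment over all genes tested and calls at 0.05. Regions were compared in the water libraries with sex as covariate. VTA male water 3, under 10000 genes detected, was left out. DESeq2 1.42.0, scaling, filter, GC and length offsets, covariates, a replicate block and leaving out each library were alternatives, and those that leave libraries out by marker score or use the cranial or cortex score were chosen after seeing the data. The 9 members are all named, other genes by the highest Pearson r (mean of at least 1 CPM) or, in the pathway lists, by passing the test. The genes of the striatal score are not reported singly here. Members, lists and tests were chosen with earlier results of these data known. A count of 0 allows 3 counts, for counting error only. Tested on simulated data, the VTA male comparison (19822 genes) called 78 of 100 genes changed 2-fold and 56 of 100 changed 1.5-fold, with 5 false calls. The simulated counts were drawn independently for each library, without GC trends or markers of other tissue. Their false calls therefore do not give the error rate of the real comparison. Replicate numbers were not shown to pair libraries: in 0 of 30 comparisons did every same-numbered pair correlate above 0.1. This rule asks every pair to pass, so it cannot exclude that the numbers mark shared animals. The fit of regions treated libraries as unpaired.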

Additional observations from a re-analysis of the deposited data

Results flagged for a closer look

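Of 180 combinations of a member with a group, 21 held a library far from the rest by Dixon's gap at its 95% value. About 1 in 20 groups, here 9, would be picked by chance. In VTA, male fentanyl 4 stood apart at 17.3 CPM for Chat, 16.3 for Slc18a3 and 78.5 for Slc5a7. Chrm2 stood apart in female fentanyl 3 (57.0 CPM) and male fentanyl 1 (68.9 CPM), and Chrm5 was low in female fentanyl 5 (13.01 CPM).

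In VBT, male water 3 was high for Chrm1 (22.1 CPM) and Chrm4 (15.2 CPM), and male fentanyl 5 for Chrm1 (18.5 CPM) and Chrm4 (6.75 CPM). These libraries had striatal scores of 6.52 and 5.31. Female fentanyl 2 was high for Slc18a3 (0.657 CPM), and female water 2 was low for Chrm3 (6.28 CPM). In PrL, Chrm2 was high in female water 5 (29.5 CPM) and male water 3 (47.4 CPM), the libraries with olfactory bulb markers, and Chrm1 was low in female water 5 (160.1 CPM).

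In S1, Chat was low in female fentanyl 3 (0.384 CPM) and female water 5 (0.385 CPM), Slc5a7 was high in female fentanyl 5 (2.40 CPM) and Chrm3 in female water 1 (94.2 CPM). In NAc, Chrm1 was high in female water 1 (181 CPM) and Chrm5 in female fentanyl 1 (4.06 CPM). VTA male water 3, which entered no comparison, held Chrm2 at 87.2 CPM and Chrm3 at 45.05 CPM, above the 66.2 and 42.3 CPM of the highest other VTA water libraries.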

How the results depend on the processing

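In the 2 fentanyl contrasts with members called, 41 of 62 alternative counts were within 1.5 times, and in the 10 region pairs 112 of 120. The other 18 fentanyl contrasts had 0 called, and 8 of 538 alternatives called any. In VTA males (2 called), DESeq2 called 5, and 1 was called with no filter, with reads outside exons, the VTA score or the cranial score as covariate, and 0 with GC offsets or with VTA male water 3 kept, with or without GC offsets. In the VTA average (1 called), 0 were called with GC offsets or with that library kept, with or without GC offsets. DESeq2 called 1 in VTA females, 3 in the VTA interaction and 1 each in S1 females and the S1 average, where no filter also called 1. Ache in VTA males turned to 0.12 with VTA male water 3 kept and GC offsets, and that library alone moved the median of all genes by 0.20. The cause was not tested. Leaving out 1 library gave 1 to 4 calls in VTA males, 1 to 2 in the VTA average and 0 to 1 in the S1 average. Without male fentanyl 4, or without any 1 of the 4 male water libraries, Slc5a7 lost its call, and Chrm2 was called in VTA males without any 1 of 6 libraries, among them female water 1 (0.76, adjusted p = 0.0245 by edgeR), which also gave a call in the average (0.51, adjusted p = 0.0275).

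Between VTA and VBT (4 called), fentanyl libraries gave 7 and turned Slc18a3 to 1.59. Leaving out water libraries of high striatal or olfactory score gave 7 there (Chat 2.53, Chrm4 0.016, Slc18a3 3.10), 4 for VBT minus S1 (Chat -0.66, Slc18a3 -0.70) and 5 for VBT minus PrL (Slc18a3 -0.30). S1 minus PrL fell to 1 with no filter. Leaving out 1 replicate number gave 4 to 5 for VTA minus VBT, 7 to 9 for VTA minus S1, 7 to 8 for VTA minus NAc, 7 to 9 for VBT minus S1, 8 to 9 for VBT minus PrL, 7 to 8 for VBT minus NAc and 1 to 2 for S1 minus PrL.

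With the replicate block, whose numbers were not shown to pair libraries (median r -0.174 to 0.216), 1 member was called in VTA males (Ache -0.38, adjusted p = 0.00415 by edgeR; Slc5a7 2.40, adjusted p = 0.0625) and 1 in S1 females (Ache, adjusted p = 0.0483). The block with GC offsets called 0 in VTA males and 0 in the VTA average.

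Over all genes, the 4355 calls in VTA males became 797 with GC offsets (274 higher), 450 with block and GC offsets, 1792 with the VTA score, 42 with male water 3 kept and 0 with it kept and GC offsets. The 4580 of the VTA average became 924, 640, 2691, 60 and 0. The 203 of the S1 average became 645 by DESeq2, 112 with the block, 87 with block and GC offsets, 90 with length offsets, 1 with reads outside exons and 0 with the cortex score. The 28 of S1 females became 402, 59 with no filter, 51 with the block and 0 with length offsets or either covariate. The 133 of the PrL average became 778, 322 with GC offsets, 66 without olfactory libraries, 6 with the cortex score and 0 with reads outside exons, and the 4 of PrL females 46 by DESeq2 and 0 to 1 in 6 other fits. The 129 of NAc males became 924, 75 with no filter, 2 with the block, 51 with block and GC offsets, 350 with GC offsets, 68 with length offsets, 316 with reads outside exons, 630 with the striatal score and 645 with the cortex score. Contrasts with 0 calls gave at most 462 by DESeq2 and 394 by edgeR. Chrm5 fell under the filter on low counts in S1 and PrL.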
